A study of Homo sapiens with 8 samples.

Results

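OAS1, OAS2, OAS3, OASL, MX1 and MX2 are interferon-induced antiviral genes, and their messenger RNA was followed here across 2 CRISPR activators and their guides. The 6 OAS and MX genes were taken by symbol, matched to Ensembl gene IDs, and were 6 of 60652 gene rows in each library. All 6 passed the filter on low counts, which left 16606 genes for testing. The 8 libraries were poly(A)-selected RNA-seq of HEK293T cells, a human embryonic kidney line, carrying a GFP reporter behind the TRE3G promoter. Activator and guide plasmids had been transfected into these cells, grown in medium with 10% serum, and cells bearing mCherry and BFP signal were collected by sorting after 2 days. The 4 groups had 2 libraries each: dCasMINI-VPR with the Tet guide (sgTet), dCasMINI-VPR with a non-targeting guide (sgNT), dCas12a-VPR with the Tet guide (crTet) and dCas12a-VPR with a non-targeting guide (crNT). dCasMINI is a compact Cas protein without cutting activity, dCas12a a larger one, and VPR is a fusion of transcription activation domains. Every group thus carried the reporter, an activator and a guide, and no untransfected group was analysed here. The labels do not say whether the 2 libraries of a group came from separate transfections, so p-values measure the spread between these libraries.

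OAS proteins sense double-stranded RNA. On binding it, OAS1, OAS2 and OAS3 join ATP into 2′-5′-linked oligoadenylates (2-5A), messenger molecules that lead to the breakdown of viral and cellular RNA. OASL is related to them but lacks the synthetase activity, carries ubiquitin-like domains and enhances signalling by the RNA sensor RIG-I. MX1 (MxA) and MX2 (MxB) are dynamin-like GTPases: MX1 blocks influenza and other viruses in the cytoplasm, and MX2, at the nuclear envelope, restricts HIV-1 and herpesviruses. Interferons induce these genes through a transcription factor complex that includes STAT2 and IRF9 and binds an interferon-stimulated response element in their promoters.

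On hg38, GENCODE release 29 places OAS1 at chr12:112906777-112933222, OAS3 at chr12:112938352-112973249 and OAS2 at chr12:112978395-113011723, all on the plus strand. The gaps between these neighbours are 5129 bases from OAS1 to OAS3 and 5145 bases from OAS3 to OAS2. OASL lies 8.01 Mb further along, at chr12:121019111-121039242 on the minus strand. MX2, at chr21:41361943-41409390, and MX1, at chr21:41420304-41459214, both on the plus strand, are 10913 bases apart. RefSeq promoter windows (GRCh38.p14) were matched for 3 of the 6 genes, OAS1, OAS3 and MX1, and are shown for these. No window was matched for OAS2, OASL or MX2. Each runs from 250 bases before to 30 bases after the start of transcription on the plus strand, and capitals mark the motif letters described next. The windows lie at chr12:112906712-112906991 for OAS1, chr12:112938224-112938503 for OAS3 and chr21:41420308-41420587 for the first of 3 MX1 starts.
OAS1: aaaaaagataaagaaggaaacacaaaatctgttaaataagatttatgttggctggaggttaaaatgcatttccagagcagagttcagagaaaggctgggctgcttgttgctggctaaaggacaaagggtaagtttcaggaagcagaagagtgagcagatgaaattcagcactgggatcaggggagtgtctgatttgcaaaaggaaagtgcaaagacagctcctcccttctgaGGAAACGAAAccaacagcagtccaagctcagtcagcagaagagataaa
OAS3: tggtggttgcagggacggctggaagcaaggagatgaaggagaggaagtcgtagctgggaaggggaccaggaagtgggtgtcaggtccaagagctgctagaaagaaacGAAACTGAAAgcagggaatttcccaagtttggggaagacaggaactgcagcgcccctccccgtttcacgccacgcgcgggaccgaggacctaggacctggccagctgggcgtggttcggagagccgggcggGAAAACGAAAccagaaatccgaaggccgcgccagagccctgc
MX1: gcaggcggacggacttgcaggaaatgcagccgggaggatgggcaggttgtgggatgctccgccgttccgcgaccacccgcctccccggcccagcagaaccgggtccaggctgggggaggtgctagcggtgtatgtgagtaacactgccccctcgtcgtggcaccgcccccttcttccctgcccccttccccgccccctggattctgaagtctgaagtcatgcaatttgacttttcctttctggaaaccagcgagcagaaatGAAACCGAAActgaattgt
The core of a response element was searched on both strands as GAAA, any 2 bases and GAAA, which occurs in 1192 of 35116 RefSeq windows (3.39%). OAS3 holds it at GAAACTGAAA and again at GAAAACGAAA just before its start, and MX1 at GAAACCGAAA just after its start. OAS1 holds no such match, but GGAAACGAAA fits a looser spelling, in which the second letter may be any base, a pattern chosen after the windows had been read, which takes in the first and occurs in 2680 windows (7.63%). The second MX1 start has no match to either pattern, and the third has 1 match on the minus strand. These matches are letters in a window and were not tested as binding sites.

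Libraries held 17474404 to 21081942 reads assigned to genes, so that a floor of 3 reads stood at 0.145 to 0.17 CPM. CPM are the deposited raw counts per megaread of TMM-adjusted library size. EGFP, the reporter, averaged 1006 ± 123 CPM in sgTet and 3.82 ± 0.846 CPM in sgNT, and 755 ± 68.1 CPM in crTet and 2.71 ± 0.0760 CPM in crNT (SD, n = 2 each). The unmapped share was 14.4% and 12.7% in crNT, against 8.32% to 9.62% in the other 6 libraries. Of 8 HEK293T markers, 7 or 8 averaged over 1 CPM in every group. A list of 7 leucocyte markers summed to between 4.05 and 5.89 CPM in the dCasMINI-VPR libraries and between 4.13 and 6.65 CPM in the dCas12a-VPR libraries, with no read of PTPRC or CD68. Exons of CD68 overlap those of other genes for 85.8% of their bases, which leaves few reads that could be counted for it.

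All 4 OAS family genes were transcribed in every library, and each was at its highest in crNT. OAS1, the smallest synthetase, had 21.1 and 20.3 CPM in the sgTet libraries, 32.6 and 25.05 CPM in the sgNT libraries, 62.9 and 52.6 CPM in the crTet libraries and 79.7 and 79.8 CPM in the crNT libraries. OAS2 had 25.5 and 21.3 CPM in sgTet, 23.4 and 22.2 CPM in sgNT, 67.0 and 50.5 CPM in crTet and 87.5 and 88.2 CPM in crNT. The dCas12a-VPR libraries of both genes lay above all dCasMINI-VPR libraries, and OAS2 in sgTet and sgNT overlapped. OAS3, the largest synthetase, had 205.9 and 202.3 CPM in sgTet, 263.7 and 253.1 CPM in sgNT, 442.2 and 377.7 CPM in crTet and 553 and 524.5 CPM in crNT. OASL had 26.4 and 32.1 CPM in sgTet, 35.7 and 35.8 CPM in sgNT, 76.0 and 67.9 CPM in crTet and 99.9 and 94.1 CPM in crNT. For OAS1, OAS3 and OASL the 4 groups did not overlap, in the order sgTet, sgNT, crTet, crNT with the lowest first. The share of all genes with such a separation was not counted. In crTet, replicate 1 stood above replicate 2 for all 6 OAS and MX genes.

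The MX genes were much scarcer. MX2 had 4.10 and 2.61 CPM in sgTet, 4.40 and 3.06 CPM in sgNT, 9.75 and 7.38 CPM in crTet and 14.6 and 16.5 CPM in crNT. The dCas12a-VPR groups of MX2 were apart from each other and above the dCasMINI-VPR groups, which overlapped. MX1 had 0.949 and 1.16 CPM in sgTet, 0.461 and 0.793 CPM in sgNT, 1.90 and 0.980 CPM in crTet and 2.30 and 0.935 CPM in crNT. These MX1 levels rest on 19 and 24 reads in sgTet, 9 and 14 in sgNT, 39 and 19 in crTet and 45 and 19 in crNT. The spread within crTet and within crNT was wider for MX1 than the distance between their means, which were 1.44 and 1.62 CPM. In bulk libraries, fewer cells with a transcript and less transcript per cell cannot be told apart.

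**Figure D1:**
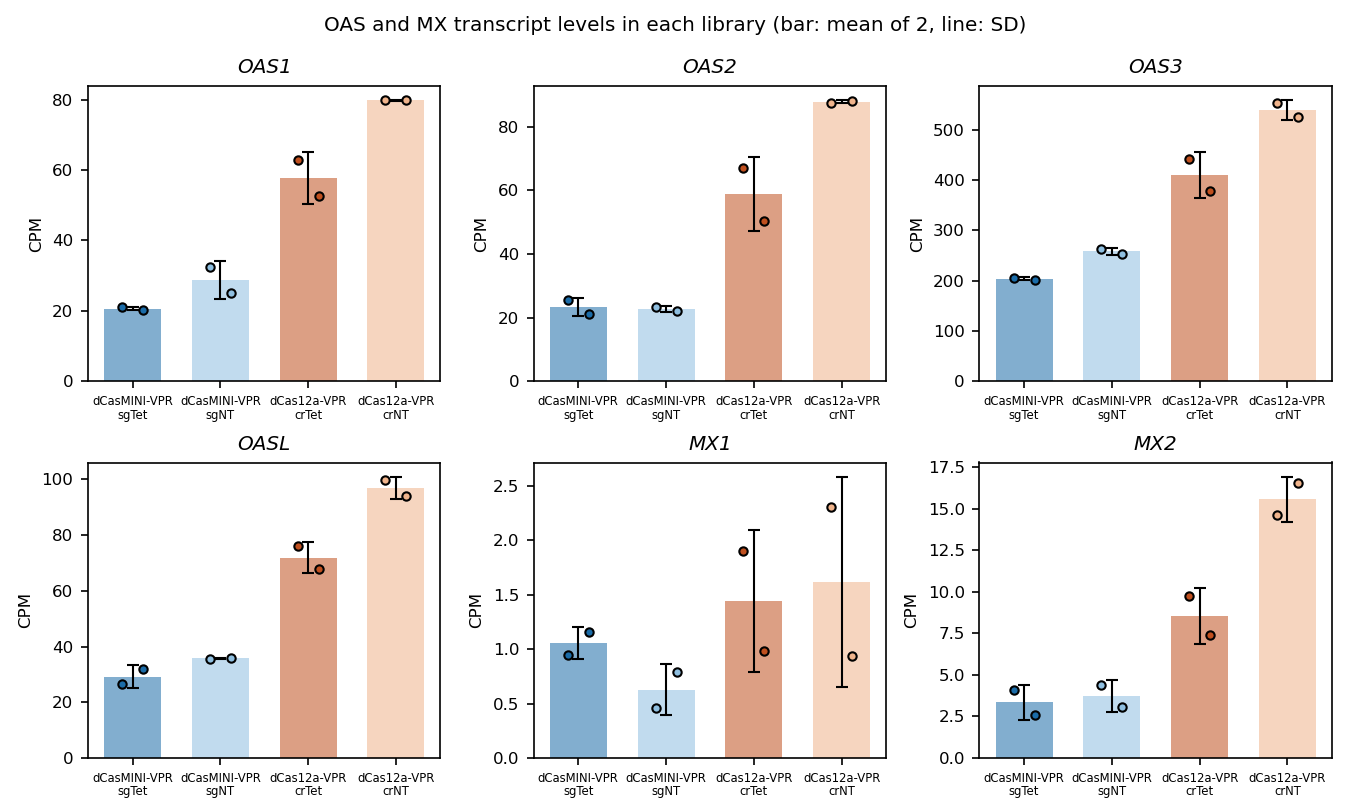
CPM of OAS1, OAS2, OAS3, OASL, MX1 and MX2 (1 panel each, linear axes that start at 0) in sgTet, sgNT, crTet and crNT, with points for libraries, bars for means of 2 libraries and lines for SD. The 4 dCas12a-VPR libraries lie above the 4 dCasMINI-VPR libraries for every OAS gene and for MX2, from 7.38 to 16.5 CPM against 2.61 to 4.40 CPM for MX2.

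Levels of different genes were compared per kilobase of the longest principal transcript, since OAS3 messages (6.72 kb) are longer than those of OAS1 (1.68 kb). On the CPM-per-kilobase scale the order of the 6 genes by group mean was OAS3, OAS1, OASL, OAS2, MX2, MX1 in all 4 groups. OAS3 averaged 30.4, 38.5, 61.0 and 80.2 CPM per kilobase in sgTet, sgNT, crTet and crNT. OAS1 averaged 12.3, 17.1, 34.3 and 47.4 CPM per kilobase in the same groups, so that the ratio of OAS3 to OAS1 was 2.47, 2.25, 1.78 and 1.69. These ratios use the count that ignores strand, which left out 28.5% to 35.5% of OAS1 reads and none of OAS3. With both strand columns OAS1 had 17.5 and 17.7 CPM per kilobase in sgTet and 72.1 and 72.6 in crNT. OAS3 then had 30.6 and 30.1 in sgTet and 82.3 and 78.1 in crNT, so the ratios were lower. At the low end, MX2 stood at 1.10, 1.23, 2.82 and 5.11 CPM per kilobase, and MX1 at 0.304, 0.181, 0.415 and 0.467. The 6 genes together summed to 283.8 and 279.8 CPM in sgTet, 360.2 and 339.9 CPM in sgNT, 659.8 and 557 CPM in crTet and 836.9 and 804.1 CPM in crNT, of which OAS3 alone gave 65.2% to 74.5%.

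The construct comparison with non-targeting guides set sgNT against crNT, where no guide was meant to find the reporter. All 4 OAS family genes and MX2 were lower with dCasMINI-VPR. OAS2 averaged 22.8 ± 0.871 CPM in sgNT and 87.8 ± 0.515 CPM in crNT (SD, n = 2 each), 3.85-fold lower in sgNT, a log2 difference of -1.95 ± 0.12 (SE, edgeR adjusted p = 3.73e-13). MX2 averaged 3.73 ± 0.949 CPM in sgNT and 15.6 ± 1.37 CPM in crNT, 4.15-fold lower in sgNT (log2 -2.05 ± 0.23, edgeR adjusted p = 1.04e-07). OAS1 was 2.76-fold lower in sgNT than in crNT (log2 -1.47 ± 0.12, edgeR adjusted p = 4.79e-11) and OASL 2.72-fold lower (log2 -1.44 ± 0.10, edgeR adjusted p = 2.55e-12). OAS3, the most abundant, had the smallest log2 difference of the 5 that passed, 2.09-fold lower in sgNT at 258.4 ± 7.49 CPM, against 538.7 ± 20.2 CPM in crNT (log2 -1.06 ± 0.07, edgeR adjusted p = 1.79e-12). Thus 5 of the 6 fell at an adjusted p of 0.05, and none rose. Over all tested genes, 7.68% were called in either direction and 3.6% lower in sgNT. The median log2 difference was -1.45 over the 6 genes, against 0.00 over all genes. Ordered by p among 16606 genes, OAS2 stood at 5, OAS3 at 11, OASL at 12, OAS1 at 18 and MX2 at 45.

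MX1 did not pass the test between sgNT and crNT, with a log2 difference of -1.37 ± 0.57 (edgeR adjusted p = 0.151). Its 95% interval ran from -2.53 to -0.206, on 9 to 45 reads per library. The sgNT and crNT libraries of MX1 did not overlap. Those of ACTB, also uncalled there, did not overlap either, and the share over all genes was not counted.

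Between the Tet groups, which share no library with the preceding comparison, the same 5 genes were lower with dCasMINI-VPR. OAS1 averaged 20.7 ± 0.549 CPM in sgTet and 57.7 ± 7.33 CPM in crTet, 2.79-fold lower in sgTet (log2 -1.48 ± 0.12, edgeR adjusted p = 9.68e-11). OAS2 was 2.51-fold lower in sgTet (log2 -1.33 ± 0.12, edgeR adjusted p = 1.74e-09), OAS3 2.01-fold lower (log2 -1.01 ± 0.07, edgeR adjusted p = 1.03e-11) and OASL 2.46-fold lower (log2 -1.30 ± 0.10, edgeR adjusted p = 6.3e-11). MX2 averaged 3.35 ± 1.05 CPM in sgTet and 8.56 ± 1.68 CPM in crTet, 2.56-fold lower in sgTet (log2 -1.36 ± 0.24, edgeR adjusted p = 0.000337). The 5 called genes of 6 compare with 4.28% of all tested genes called in either direction and 2.6% called lower in sgTet. The median log2 difference was -1.32 over the 6 genes, against 0.00 over all genes. MX1 overlapped between sgTet and crTet and did not pass (log2 -0.45 ± 0.53, edgeR adjusted p = 0.717). The 5 calls held under all 17 alternatives in each of these construct comparisons. The labels give no batch, and the construct and anything else that set its 4 libraries apart cannot be told apart.

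**Figure D2:**
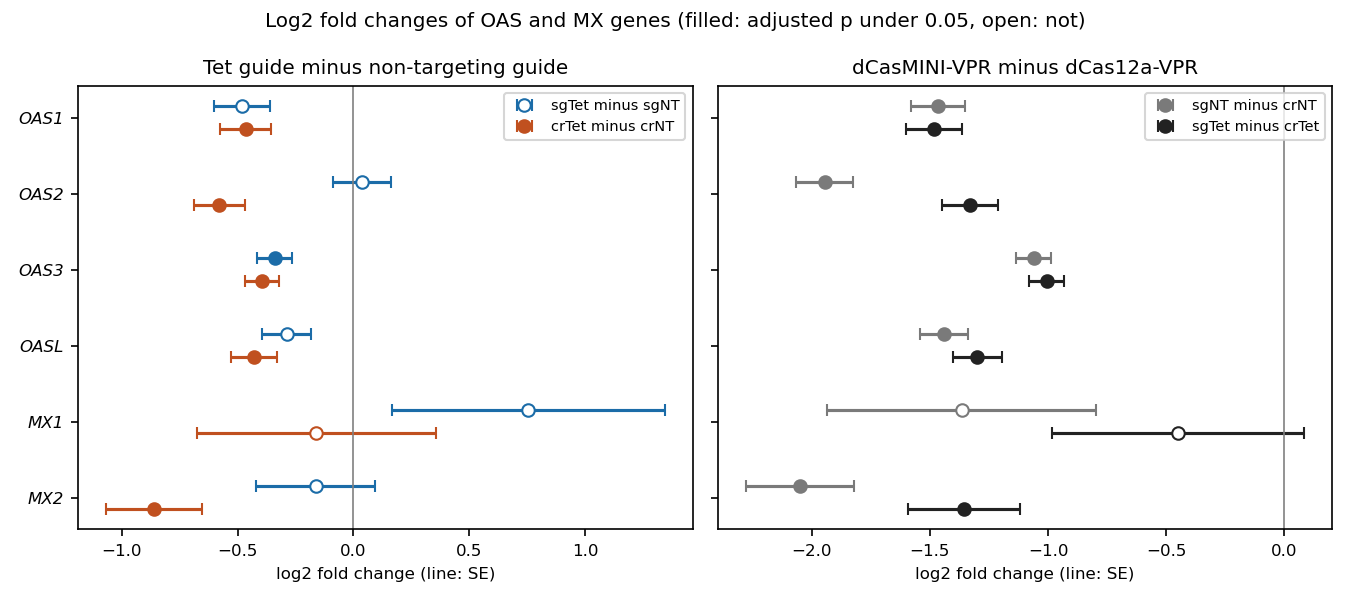
Log2 fold changes ± SE from edgeR for the 6 OAS and MX genes, with the 2 guide effects (Tet minus non-targeting) on the left and the 2 construct comparisons (dCasMINI-VPR minus dCas12a-VPR) on the right, and filled points for genes that passed. OAS1, OAS2, OAS3, OASL and MX2 lie between -2.05 and -1.01 in the construct comparisons, while their guide effects lie between -0.86 and 0.04, and MX1 has the widest error.

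With dCas12a-VPR, the Tet guide came with lower levels of the same 5 genes. OAS2 averaged 58.8 ± 11.7 CPM in crTet and 87.8 ± 0.515 CPM in crNT, a log2 change of -0.58 ± 0.11 (edgeR adjusted p = 0.00144). OAS3 averaged 410 ± 45.6 CPM in crTet and 538.7 ± 20.2 CPM in crNT, a log2 change of -0.39 ± 0.07 (edgeR adjusted p = 0.000863). MX2 had the largest log2 change, -0.86 ± 0.21 (edgeR adjusted p = 0.00965). OAS1 fell by 0.47 on the log2 scale (edgeR adjusted p = 0.00819) and OASL fell by 0.43 (edgeR adjusted p = 0.00606). The libraries of crTet and crNT did not overlap for any of these 5. Uncalled genes such as GAPDH and ACTB did not overlap there either, and the share over all genes was not counted. MX1 overlapped, and its log2 change of -0.16 ± 0.52 did not pass (edgeR adjusted p = 0.912). Of all tested genes, 6.32% were called in either direction and 2.75% lower in crTet. The median log2 change was -0.45 over the 6 genes, against 0.01 over all genes.

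The calls of the dCas12a-VPR guide effect were lost without certain libraries, while the log2 changes of the 5 genes kept their sign. Without crTet replicate 2 none of the 5 passed (edgeR adjusted p of 0.0593 to 0.186), with log2 changes of -0.34 for OAS1, -0.39 for OAS2, -0.28 for OAS3, -0.35 for OASL and -0.67 for MX2. Without crNT replicate 1 OAS2 alone passed, with OAS1 at an adjusted p of 0.118, OAS3 at 0.0726, OASL at 0.18 and MX2 at 0.0739, and with log2 changes of -0.47 for OAS1, -0.36 for OAS3, -0.39 for OASL and -0.95 for MX2. Without crNT replicate 2 OAS1 (log2 -0.46, adjusted p = 0.0834) and MX2 (log2 -0.76, adjusted p = 0.145) were lost. The share of unmapped reads moved with these groups, at 9.55% and 9.37% in crTet and 14.4% and 12.7% in crNT, and its part in the result was not tested.

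With dCasMINI-VPR, OAS3 was the only 1 of the 6 that passed, lower with the Tet guide. It averaged 204.1 ± 2.51 CPM in sgTet and 258.4 ± 7.49 CPM in sgNT, a log2 change of -0.34 ± 0.07 (edgeR adjusted p = 0.0147). That is 1 of 6, where 0.795% of all tested genes were called in either direction and 0.325% lower in sgTet. The call was lost without sgNT replicate 1 (edgeR adjusted p = 0.28) or sgNT replicate 2 (0.128). OAS1 averaged 20.7 ± 0.549 CPM in sgTet and 28.8 ± 5.34 CPM in sgNT, and its log2 change of -0.48 ± 0.12 stood just outside the threshold (edgeR adjusted p = 0.0523). It passed without sgTet replicate 2 (0.0325), sgNT replicate 2 (0.0197), crTet replicate 1 (0.0366) or crTet replicate 2 (0.037), and OASL passed without sgTet replicate 2 (0.0107). OASL had a log2 change of -0.29 ± 0.11 (edgeR adjusted p = 0.237), and its 2 sgTet libraries lay below both sgNT libraries. Uncalled genes such as ACTB did not overlap between these groups either, and the share over all genes was not counted. OAS2 stood at 23.4 ± 2.94 CPM in sgTet and 22.8 ± 0.871 CPM in sgNT, with a log2 change of 0.04 (95% interval -0.219 to 0.294, edgeR adjusted p = 0.935). MX2 had a log2 change of -0.16 ± 0.26 (edgeR adjusted p = 0.845) and MX1 of 0.76 ± 0.59 (edgeR adjusted p = 0.63), on 43 reads in sgTet and 23 in sgNT.

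Whether the guide effects differed between the constructs was tested as their difference, dCasMINI-VPR minus dCas12a-VPR. None of the 6 genes passed with edgeR at an adjusted p of 0.05, where 1.35% of all tested genes did. At an unadjusted edgeR p under 0.05 there were 2, OAS2 and MX2. Ordered by p among 16606 genes, OAS2 stood at 268 and MX2 at 2425. At least 2425 of the 16606 tested genes thus met that unadjusted threshold, so the count of 2 is not read as a result about the 6 genes. DESeq2 called 1, OAS2. OAS2 differed by 0.62 ± 0.17 on the log2 scale (95% interval 0.274 to 0.96, edgeR adjusted p = 0.0559), and passed without sgTet replicate 2 (0.00215) or crTet replicate 1 (0.0128). MX2 differed by 0.70 ± 0.33 (95% interval 0.023 to 1.37, edgeR adjusted p = 0.295). For OAS3 the difference was 0.05 (95% interval -0.159 to 0.266) and for OAS1 -0.01 (95% interval -0.348 to 0.318). The guide effects and the construct comparisons draw on the same 8 libraries, and their values for 1 gene are not independent of each other.

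Of 9 listed genes 8 were tested, partners of the OAS enzymes in the 2-5A pathway and in sensing of double-stranded RNA. The other listed gene, CGAS, a sensor of DNA, did not pass the filter. Of all tested genes, 7.68% were called in either direction in sgNT against crNT and 4.28% in sgTet against crTet. In sgNT against crNT 5 of the 8 fell and none rose, with a median log2 difference of -0.48. IFIH1 (MDA5), a cytoplasmic sensor of long double-stranded RNA, fell by 1.05 (edgeR adjusted p = 1.82e-08), and DHX58 (LGP2), its cofactor, fell by 1.36 (edgeR adjusted p = 4.76e-06). ADAR, the editor that marks cellular double-stranded RNA, fell by 0.44 (edgeR adjusted p = 5.96e-05). ZC3HAV1, the antiviral zinc finger protein that binds CpG-rich RNA, fell by 0.51 (edgeR adjusted p = 9.02e-05). EIF2AK2 (PKR), a kinase that halts translation on double-stranded RNA, fell by 0.59 (edgeR adjusted p = 0.000312). In sgTet against crTet 4 fell and 1 rose, with a median of -0.34: IFIH1 fell by 0.80 and DHX58 by 1.62 (edgeR adjusted p = 6.58e-06 and 1.13e-06). EIF2AK2 (log2 -0.39) and ADAR (-0.28) passed there too, but not without crTet replicate 1 (edgeR adjusted p = 0.207 for EIF2AK2 and 0.263 for ADAR), with forward-strand counts (0.066 and 0.0638) or with the compared groups alone (0.0599 and 0.16). ABCE1, a ribosome recycling factor, was the gene that rose, by 0.42 (edgeR adjusted p = 0.00137).

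Among the same partners, 3 of 8 fell and 1 rose with the Tet guide of dCas12a-VPR (median log2 -0.19), where 6.32% of all tested genes were called. IFIH1 fell by 0.39 (edgeR adjusted p = 0.0215), DHX58 by 0.59 (0.0371) and ZC3HAV1 by 0.31 (0.0216), and RIGI, the sensor of short double-stranded RNA ends, rose by 1.48 (0.0311) on 123 reads in crTet and 44 in crNT. Leaving out crTet replicate 2 or crNT replicate 1 ended each of these 4 calls, with edgeR adjusted p of 0.0914 to 0.586. Those of IFIH1 (0.0708), ZC3HAV1 (0.0839) and RIGI (0.135) also ended without crNT replicate 2, and those of DHX58 (0.0727) and RIGI (0.148) without crTet replicate 1. With dCasMINI-VPR 1 rose and 1 fell of 8 (median -0.05), where 0.795% of all tested genes were called. ABCE1 rose by 0.37 (edgeR adjusted p = 0.0155), a call lost without sgTet replicate 1 (0.286), sgNT replicate 1 (0.136) or sgNT replicate 2 (0.314). DHX58 fell by 0.85 (edgeR adjusted p = 0.041), a call lost without sgTet replicate 1 (0.158), sgNT replicate 1 (0.444) or crNT replicate 1 (0.0551). With all libraries kept, the same DHX58 call was lost with DESeq2 (0.0503), forward-strand counts (0.278), reverse-strand counts (0.0852), their sum (0.0539) and the compared groups alone (0.165).

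Of 13 genes of interferon signalling, which lies upstream of the OAS and MX genes, 12 were tested. Of all tested genes, 3.6% were called lower in sgNT against crNT, 2.6% in sgTet against crTet and 2.75% in crTet against crNT. In sgNT against crNT 3 fell and none rose (median log2 -0.01). USP18, a brake on the interferon receptor, averaged 104.7 CPM in sgNT and 217.6 CPM in crNT and fell by 1.06 (edgeR adjusted p = 7.16e-12), STAT2 by 0.93 (8.45e-08) and IRF7, a transcription factor for interferon genes, by 0.67 (0.000128). In sgTet against crTet the same 3 genes fell (USP18 by 0.66, STAT2 by 0.86 and IRF7 by 0.67), and so did IRF1, by 0.62 (edgeR adjusted p = 0.0379, median of the list -0.21). The IRF1 call ended without sgTet replicate 1 (0.204), crTet replicate 2 (0.308), crNT replicate 1 (0.0574) or crNT replicate 2 (0.058). With dCas12a-VPR 2 genes fell with the Tet guide and none rose (median -0.03): USP18 by 0.57 (edgeR adjusted p = 2.45e-05) and STAT2 by 0.37 (0.0215). STAT2 lost its call without crTet replicate 2 (0.258), crNT replicate 1 (0.409) or crNT replicate 2 (0.0505). With dCasMINI-VPR none of the 12 passed in edgeR or DESeq2 (median -0.10). Of them, 3 had an unadjusted edgeR p under 0.05, a threshold whose share over all tested genes is not given here. IRF9 and IFNAR2, an interferon receptor chain, share 48.4% and 83.2% of their exon bases with other genes, so their unstranded counts are uncertain.

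**Figure D3:**
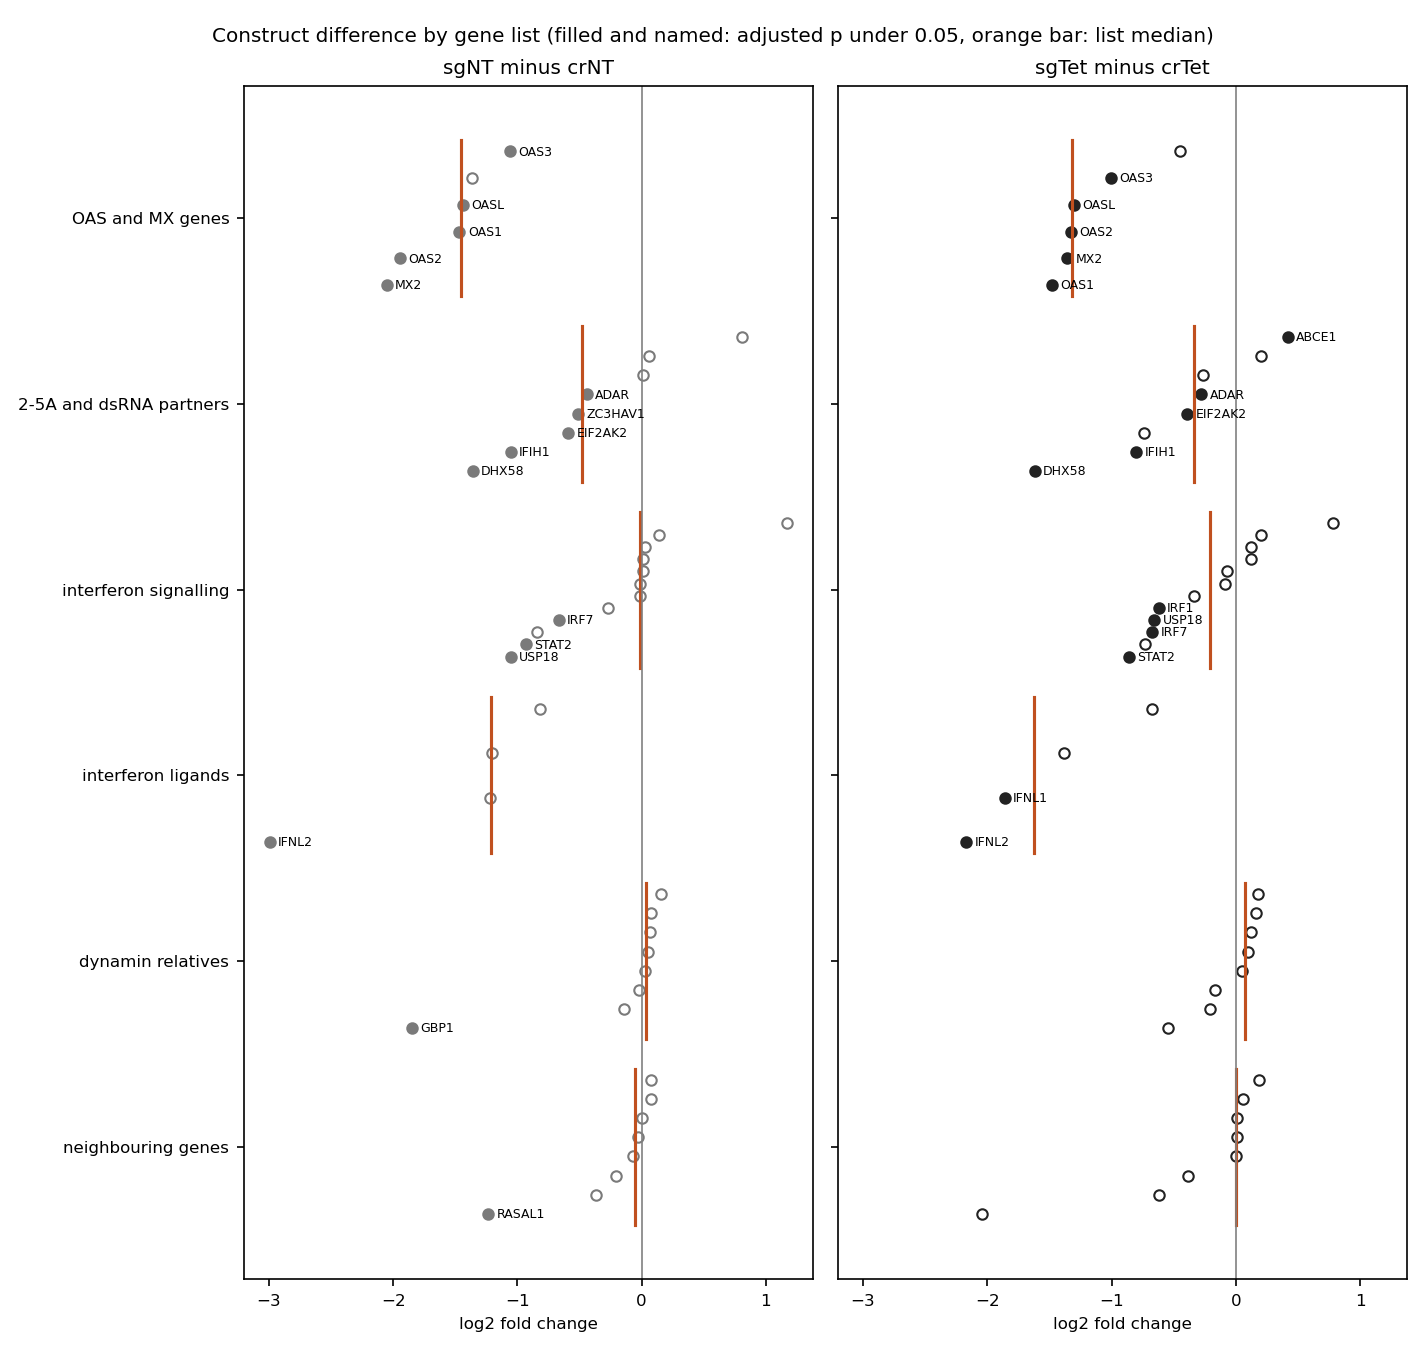
Log2 fold changes from edgeR in the 2 construct comparisons for each tested gene of the OAS and MX genes and of the 5 pathway lists, with filled and named points for genes that passed and an orange bar at each list's median. The medians lie between -1.62 and -0.01 for the partners, signalling and ligand lists, and between -1.45 and -1.32 for the OAS and MX genes.

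Messages of interferons themselves were scarce. IFNB1 averaged 3.14 CPM in sgTet, 3.53 CPM in sgNT, 5.02 CPM in crTet and 6.21 CPM in crNT. IFNL1 had 29 reads in sgTet, 40 in sgNT, 104 in crTet and 98 in crNT, summed over the 2 libraries of a group. Of 9 ligand genes 4 were tested. Of all tested genes, 3.6% were called lower in sgNT against crNT and 2.6% in sgTet against crTet. In sgNT against crNT 1 of them fell, IFNL2 by 2.99 (edgeR adjusted p = 0.00325), with 8 reads in sgNT and 70 in crNT. That call was lost with reverse-strand counts (log2 -1.95, edgeR adjusted p = 0.117). In sgTet against crTet 2 fell: IFNL1 fell by 1.86 (edgeR adjusted p = 0.0129) and IFNL2 fell by 2.17 (0.0353), the second on 14 reads in sgTet and 63 in crTet. IFNL2 is nearly identical to IFNL3, and reads that fit both may be missing from their counts, since multimapping reads were totalled apart. The IFNL1 call ended without sgTet replicate 1 (0.105) or crTet replicate 1 (0.114), and the IFNL2 call in the Tet groups without sgTet replicate 1 (0.167), crTet replicate 1 (0.238), crNT replicate 1 (0.0633) or crNT replicate 2 (0.0568). No ligand passed in either guide effect with edgeR or DESeq2, and 0 of 4 had an unadjusted edgeR p under 0.05.

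Among 12 relatives of the MX proteins in the dynamin superfamily, 8 were tested, and GBP1, an interferon-induced guanylate-binding protein, was the gene that passed. It fell by 1.85 in sgNT against crNT (edgeR adjusted p = 0.000587) and by 1.06 with the Tet guide of dCas12a-VPR (0.047), a call lost without crTet replicate 1 (0.0644), crTet replicate 2 (0.367), crNT replicate 1 (0.529) or crNT replicate 2 (0.0825). Of 13 genes beside the OAS, OASL and MX loci 8 were tested. Of all tested genes, 7.68% were called in sgNT against crNT and 6.32% with the Tet guide of dCas12a-VPR. A count of 1 in 8 thus does not set either list apart. Of the genes beside the loci RASAL1 alone passed, in sgNT against crNT, falling by 1.24 (edgeR adjusted p = 0.0149). It lost that call without sgNT replicate 1 (0.0771), sgNT replicate 2 (0.16) or crNT replicate 1 (0.322).

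The OAS1 level depends on how its reads were counted. An antisense gene on the minus strand, ENSG00000257452 at chr12:112907628-113017751, shares 92 exon bases with OAS1 and none with OAS2 or OAS3. Reads in shared bases were left out of the count that ignores strand: 168 to 863 reads per library, or 28.5% to 35.5% of the OAS1 total over both strand columns. With these reads included, OAS1 had 17.5 and 17.7 CPM per kilobase in sgTet, 27.4 and 23.1 in sgNT, 52.6 and 43.7 in crTet and 72.1 and 72.6 in crNT. The order of the groups was the same as without them. Reads fell on both strands of OAS1 alike, 48.2% to 52.2% on the forward strand, so strand does not tell OAS1 and antisense reads apart. The antisense gene itself had 0 reads in the count that ignores strand in every library. Its strand columns held as many reads as were left out for OAS1, 168 to 863 per library. The origin of these reads was not tested. MX1 shares 236 exon bases with an antisense gene and 2 to 13 of its reads per library were left out of the unstranded count, while the strand columns of the antisense gene held 1 to 9 reads. No reads of OAS2, OAS3, OASL or MX2 were left out.

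**Figure D4:**
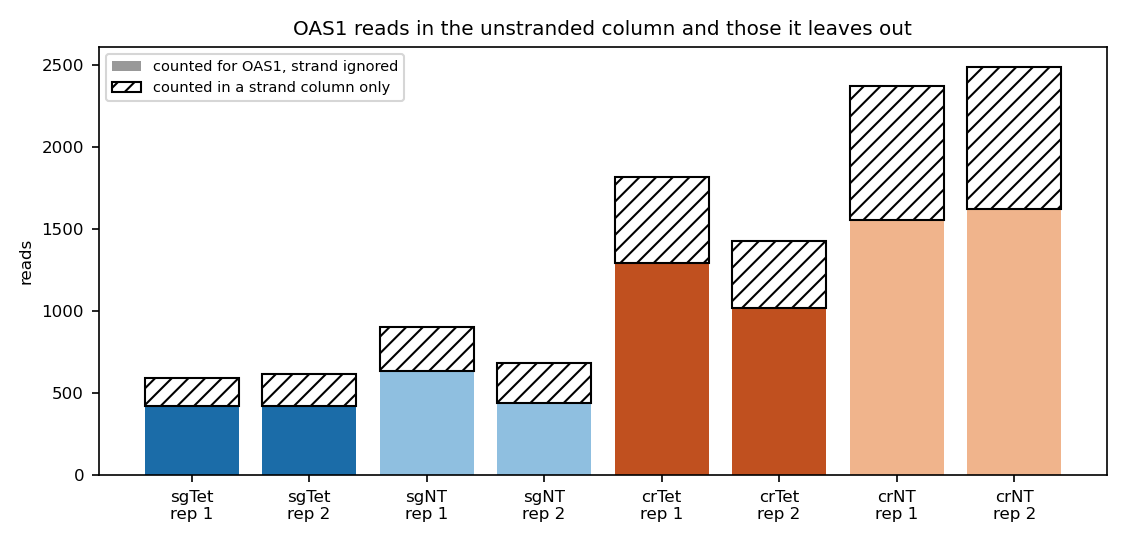
OAS1 reads in each of the 8 libraries, in the order sgTet, sgNT, crTet, crNT, split into reads counted without regard to strand and reads left out for overlap with the antisense gene. The part left out is 28.5% to 35.5% of the total in every library, and the total follows the same group order with or without it.

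The genes whose profile over the 8 libraries was most like the mean profile of the 6 genes were taken from 12500 genes of sufficient level, by Pearson correlation of log2 CPM. The 8 libraries share constructs in sets of 4, and the mean profile lay below 0 in all 4 dCasMINI-VPR libraries and above 0 in all 4 dCas12a-VPR libraries, on the standardised log2 scale. IFI44 came first (r = 0.994), followed by SHC1 (0.993), TRIM5 (0.992), IFI44L (0.991), PARP9 (0.987), IFIT2 (0.986), IFIT3 (0.985) and CMPK2 (0.984). IFI44 averaged 15.1, 17.1, 38.2 and 56.2 CPM in sgTet, sgNT, crTet and crNT, a spread between groups like that of OAS1, which averaged 20.7, 28.8, 57.7 and 79.8 CPM. SHC1 averaged 44.5, 44.1, 58.1 and 66.7 CPM in the same groups, a profile of like shape but smaller span. In all, 74 genes reached an r of 0.95.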

How the data were processed

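Poly(A)-selected mRNA from the 8 libraries was sequenced on an Illumina NovaSeq instrument, per the labels. Reads were aligned to hg38 with STAR, per the submitters' processing notes (the version is not given in the sources used here). The authors deposited the counts as raw, unnormalised reads for each gene. Each library has 3 count columns and 4 rows of totals. These stayed out of tests and of library sizes: unmapped reads were 8.32% to 14.4%, multimapping 3.54% to 5.64%, reads outside features 1.46% to 2.23% and ambiguous reads 10.4% to 11.2%. The column that ignores strand was used, since the strand columns split reads about evenly.

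Counts were fitted with edgeR 4.0.16 (robust quasi-likelihood, two-sided) in R 4.3.3, as a single model with 1 mean for each group, TMM factors and edgeR's filter on low counts by group. A gene was called at an adjusted p of 0.05 (Benjamini-Hochberg, over every gene tested). The fit had a common biological coefficient of variation of 8.04%, 4 residual degrees of freedom and a median of 28.9 prior ones. SE is |log2 fold change| over √F. CPM are given as mean ± SD over 2 libraries. Floors of 3 reads cover counting error only. Log2 CPM for profiles used a prior count of 2, and genes with a mean log2 CPM of at least 1. Lengths and overlaps come from GENCODE release 29, whose gene versions are older than those of the counts. DESeq2 1.42.0, other scalings, strand columns and left-out libraries were alternatives. All 6 OAS and MX genes are named whatever their values, and from each pathway list at most 6 called genes by smallest adjusted p. Some genes of the lists are not reported here. Genes and lists were chosen with earlier results of these data known.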

Additional observations from a re-analysis of the deposited data

How the results depend on the processing

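In the construct comparisons OAS1, OAS2, OAS3, OASL and MX2 stayed called and lower with dCasMINI-VPR in all 17 alternatives run for each. The number of the 6 genes called in the dCas12a-VPR guide effect was 5 and ranged from 0 to 5 over fits that left out 1 library. In the dCasMINI-VPR guide effect it was 1, became 2 (OAS1 added) under library size alone, no filter, the sum of both strand columns and either replicate block, and ranged from 0 to 3 over left-out libraries. With reverse-strand counts OAS1 (0.0137) was called and OAS3 (0.0928) was not. In the difference between the guide effects it was 0, became 1 (OAS2) under no filter, DESeq2, reverse-strand counts and either replicate block, and ranged from 0 to 1 over left-out libraries. Deviations of same-numbered replicates in different groups correlated at -0.031 to 0.049 over genes. Genes with few reads weigh as much as others in these correlations, so they cannot exclude a step shared by replicate number. The labels do not say what the numbers share. Of 31 calls among the other pathway genes, 15 were lost in at least 1 alternative that kept all libraries, each of them with 1 strand column alone or the compared groups alone (adjusted p of 0.0541 to 0.296): ADAR, EIF2AK2, IFNL1, IFNL2 and IRF1 in sgTet against crTet, IFNL2 and RASAL1 in sgNT against crNT, DHX58, GBP1, IFIH1, RIGI, STAT2 and ZC3HAV1 in the dCas12a-VPR guide effect and ABCE1 and DHX58 in the dCasMINI-VPR guide effect. The sum of both strand columns also ended the DHX58 calls (0.0526 with dCas12a-VPR and 0.0539 with dCasMINI-VPR) and that of GBP1 (0.0578), and DESeq2 that of DHX58 with dCasMINI-VPR (0.0503).

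Genes called of all tested varied with the fit. In sgNT against crNT they were 1276, 2968 with those groups alone and 333 to 2143 with 1 library left out. In sgTet against crTet they were 711, 444 with forward-strand counts, 317 with those groups alone and 331 to 2150 with 1 library left out. The dCas12a-VPR guide effect had 1049, 661 with forward-strand counts, 1785 with its groups alone and 135 to 1965 with 1 left out. The dCasMINI-VPR guide effect had 132, 276 with no filter, 84 with its groups alone and 50 to 1475 with 1 left out. The difference had 224, 450 with no filter, 106 with forward-strand counts, 347 with the replicate block within construct, 400 with the block across groups and 28 to 1835 with 1 left out. Scaling by library size alone moved the share of calls that were higher to 45.9%, against 59.1%, in the dCasMINI-VPR guide effect, to 41.8%, against 56.4%, in the dCas12a-VPR guide effect and to 28.6%, against 39.2%, in sgTet against crTet, and moved the median of all genes by at most 0.039 on the log2 scale.

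The sign turned for 18 values of uncalled log2 changes, and the cause was not tested. With 1 library left out, MX1 ranged from -0.8502 to 0.1042 in sgTet against crTet and from -0.7182 to 0.623 in the dCas12a-VPR guide effect, where it turned without crTet replicate 2 (0.2366) and crNT replicate 1. In the dCasMINI-VPR guide effect MX2 ranged from -0.5201 to 0.1312 and OAS2 from -0.0945 to 0.1613, and OAS2 also turned under library size alone (-0.0020) and with forward-strand counts (-0.0555). In the difference OAS1 ranged from -0.1907 to 0.1934, OAS3 from -0.0625 to 0.1684 and OASL from -0.0064 to 0.2758, and OAS1 also turned with forward-strand counts (0.1267), the sum of strands (0.0685) and the replicate block within construct (8e-04) and across groups (2e-04). A group with 1 library left is assumed to vary like the others. Depth limits MX1, at 9 to 45 reads per library.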
